A study of Mus musculus with 24 samples.

Results

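Bdh1, Oxct1 and Acat1 encode the 3 mitochondrial enzymes that interconvert ketone bodies and pass their carbon to acetyl-CoA. They were taken by gene symbol from the count tables of a study of mouse hearts with defects in mitochondrial long-chain fatty acid oxidation. Each symbol had 1 row among the 24421 genes counted, and all 3 members passed the filter on low counts that left 15804 genes for testing. The study holds 24 polyA RNA-seq libraries from hearts of chow-fed male mice aged 14 weeks, of a mixed strain that is mainly C57BL/6N with some 129.

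The 6 genotypes combine alleles of Acadl, the gene of long-chain acyl-CoA dehydrogenase, with alleles of Acadvl, the gene of very long-chain acyl-CoA dehydrogenase. Wild type (Acadl wt / Acadvl wt), Acadl Het / Acadvl wt, Acadl Het / Acadvl KO and Acadl KO / Acadvl wt have 4 libraries each. Acadl Het / Acadvl Het has 3 libraries and Acadl KO / Acadvl Het has 5. The hearts with Acadvl KO are therefore also Acadl Het, and no library lacks both genes by its label. The RNA came from 2 isolation batches, the first with 9 libraries and the second with 15, and each genotype occurs in both. Acadl Het / Acadvl Het, Acadl Het / Acadvl KO and Acadl KO / Acadvl wt each have a single library in batch 1. The labels do not say how the alleles were made. The labels do not state whether libraries of a genotype came from different mice. The p-values therefore refer to the spread among these libraries alone, and that spread may be technical.

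Ketone bodies are made in liver mitochondria when fatty acid oxidation supplies more acetyl-CoA than the tricarboxylic acid cycle takes up, and are burned in heart, muscle and brain. In the heart, Bdh1 oxidizes beta-hydroxybutyrate to acetoacetate, Oxct1 activates acetoacetate with CoA taken from succinyl-CoA, and Acat1 splits the acetoacetyl-CoA into acetyl-CoA. Liver carries Bdh1 and Acat1 but very little Oxct1, so it exports ketone bodies and does not use them. Acat1 also performs the last step of isoleucine breakdown. A raised Bdh1 transcript has been described in failing hearts.

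Library totals ran from 34320838 to 51743114 counts. The 8 ventricular cardiomyocyte markers summed to between 66211 and 87193 counts per 1000000 (CPM) in every library, so the defining markers of the labelled tissue were present. Acadvl followed its KO label, at 599 ± 121 CPM in Acadl Het / Acadvl KO hearts against 1577 ± 19.3 CPM in wild type (SD, n = 4 each). With the Acadvl Het label it was at 1079 CPM in Acadl Het hearts, below wild type. In Acadl KO / Acadvl Het hearts it was at 1430 CPM and overlapped wild type, and in Acadl KO / Acadvl wt hearts it was at 2115 CPM. Acadl went against its labels, at 1894 ± 167 CPM in Acadl KO / Acadvl wt hearts against 1358 ± 42.0 CPM in wild type (SD, n = 4 each). Its means in Acadl Het hearts were 1549, 1520 and 1454 CPM with Acadvl wt, Het and KO. The labels do not say which exons were disrupted, so it is not known whether the counted reads lie outside them. Every direction below for the Acadl KO hearts rests on the label, and they are called labelled Acadl KO. Alb, a liver transcript, was above 10 CPM in 6 libraries: the 3 of Acadl Het / Acadvl Het (159, 19.8 and 39.7 CPM), replicate 2 of Acadl Het / Acadvl KO (36.8 CPM) and replicates 2 and 3 of the labelled Acadl KO / Acadvl wt hearts (61.7 and 13.6 CPM). Replicate 1 of Acadl Het / Acadvl Het also stood apart in Rn45s, a ribosomal precursor RNA, which took 17.3% of its counts and at most 0.558% of any other library.

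Bdh1, the beta-hydroxybutyrate dehydrogenase of the inner mitochondrial membrane, was the member that differed most between genotypes, and its upstream sequence is shown beside that of Oxct1 for this reason. The gene as counted spans chr16:31422297-31458901 (mm10, plus strand), with 8 exons and 3333 exon bases that overlap no other counted gene. RefSeq (GRCm38.p6) lists 2 Bdh1 starts 6456 bases apart, and the first is the start of the counted gene. Oxct1 spans chr15:4026428-4155344 (plus strand) with 17 exons and 3482 exon bases. Of these, 422 bases are shared with BC037032, and without strand, reads there cannot be told apart. BC037032 stood at 34.5 to 42.3 CPM as group means, against 814 to 1063 CPM for Oxct1. The 250 bases before each start follow, 5′ to 3′ on the plus strand, with CG dinucleotides in capitals.
Bdh1, first start, chr16:31422047-31422296: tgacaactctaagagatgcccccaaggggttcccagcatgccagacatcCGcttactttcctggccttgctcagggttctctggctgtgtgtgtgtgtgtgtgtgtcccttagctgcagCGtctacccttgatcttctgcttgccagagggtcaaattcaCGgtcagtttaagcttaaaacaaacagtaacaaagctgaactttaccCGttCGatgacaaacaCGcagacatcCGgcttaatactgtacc
Bdh1, second start, chr16:31428503-31428752: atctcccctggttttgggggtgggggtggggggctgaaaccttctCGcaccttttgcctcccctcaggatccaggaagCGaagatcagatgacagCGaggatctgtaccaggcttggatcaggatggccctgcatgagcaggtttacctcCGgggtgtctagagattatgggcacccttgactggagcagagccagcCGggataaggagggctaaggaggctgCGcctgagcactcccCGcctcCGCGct
Oxct1, chr15:4026178-4026427: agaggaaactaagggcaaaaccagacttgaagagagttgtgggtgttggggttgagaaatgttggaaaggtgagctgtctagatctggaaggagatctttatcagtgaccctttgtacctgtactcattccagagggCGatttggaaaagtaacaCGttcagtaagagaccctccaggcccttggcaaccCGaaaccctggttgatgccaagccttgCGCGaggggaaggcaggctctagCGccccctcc

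These 3 stretches hold 7, 9 and 6 CG dinucleotides, against a median of 6 over 32851 such RefSeq stretches. A search of both strands of each 300-base window, from 250 bases before to 50 after the start, was made for 4 motifs of factors known for metabolic and stress genes. These were the PPAR direct repeat, made of AGGNCA and the same again with 1 base between, the estrogen-related receptor motif AAGGTCA, the ATF4 composite motif TGATGNAA and the antioxidant response motif TGACNNNGC. The PPAR repeat can contain AGGTCA, which is most of the estrogen-related receptor motif. The 4 motifs occur in 0.381%, 4.72%, 3.97% and 12.4% of all windows, in that order, and 0 of the 3 member windows hold any of them. Acat1 lies at chr9:53580522-53610350 (mm10, minus strand), with 12 exons and 3373 exon bases that overlap no other counted gene.

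In wild-type hearts the enzymes after Bdh1 were the more abundant transcripts per length. Oxct1 stood at 291 ± 29.1 CPM per kb and ranked 223 of 15804 genes. Acat1 stood at 206 ± 11.4 CPM per kb and ranked 324, and Bdh1 at 35.5 ± 7.16 CPM per kb ranked 1714 (SD, n = 4 each). Counts were 3379 to 19079 for Bdh1, 25330 to 52948 for Oxct1 and 20916 to 36866 for Acat1 per library, so spread between libraries and not counting error sets the precision.

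Bdh1 was higher in every library with a full knockout label than in every library without. Wild-type hearts had 100.0, 130.0, 146 and 97.1 CPM, a mean of 118 ± 23.9 (SD, n = 4). Acadl Het / Acadvl wt hearts had 123, 114, 88.9 and 127 CPM (113 ± 17.0, n = 4), and Acadl Het / Acadvl Het hearts had 203, 83.0 and 92.7 CPM (126 ± 66.4, n = 3). These 3 genotypes overlapped throughout, and the 203 CPM belongs to the library rich in Alb and Rn45s.

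In Acadl Het / Acadvl KO hearts Bdh1 was at 367, 377, 309 and 267 CPM (330.0 ± 51.6, n = 4). The labelled Acadl KO / Acadvl wt hearts had 362, 505, 294 and 422 CPM (396 ± 89.8, n = 4), and the labelled Acadl KO / Acadvl Het hearts had 481, 229, 376, 484 and 473 CPM (409 ± 110, n = 5). The lowest of the 13 libraries with a full knockout label, at 229 CPM, was above the highest of the 11 others. Of all genes tested, 4.97% were higher without overlap in this split and 3.59% lower, and among the members this held for Bdh1 alone. The library at 229 CPM, replicate 2 of Acadl KO / Acadvl Het, was also the one with most atrial RNA, where 6 atrial cardiomyocyte markers summed to 1994 CPM against 155 to 634 CPM in the others. The part of atrial tissue in its Bdh1 level was not tested.

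**Figure D1:**
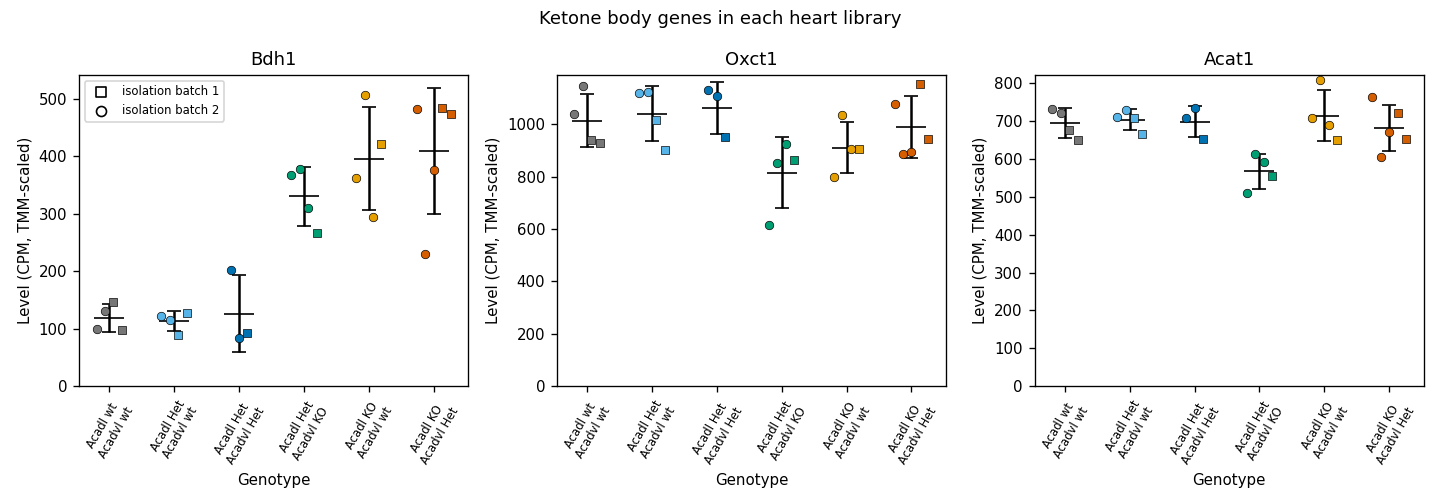
Level of Bdh1, Oxct1 and Acat1 in CPM (y axis) in each library of the 6 genotypes (x axis), with squares for isolation batch 1, circles for batch 2, and bars for the mean ± SD. Bdh1 separates the 13 libraries with a full knockout label, from 229 CPM upward, from the 11 others, while Acat1 is lowest in Acadl Het / Acadvl KO hearts at 509 to 613 CPM.

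Against wild type, Bdh1 rose 3.33-fold in the labelled Acadl KO / Acadvl wt hearts, a log2 fold change of 1.74 (SE 0.27, edgeR adjusted p = 7.40e-05). It was 3.45-fold higher in the labelled Acadl KO / Acadvl Het hearts, at 1.79 (SE 0.26, adjusted p = 3.15e-05), and 2.77-fold higher in Acadl Het / Acadvl KO hearts, at 1.47 (SE 0.27, adjusted p = 0.000541). Among 15804 log2 fold changes these ranked 223, 138 and 370 from the top. The 3 comparisons share the 4 wild-type libraries and are not independent. In bulk tissue, more RNA per cell and more cells that express a gene cannot be told apart.

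Other controls gave values of like size. Bdh1 was 3.37-fold higher in the 9 labelled Acadl KO hearts than in the 7 Acadl Het hearts with no knockout, balanced over Acadvl wt and Het, at 1.75 (SE 0.20, adjusted p = 6.93e-07). In Acadl Het hearts it was 2.91-fold higher with Acadvl KO than with Acadvl wt, at 1.54 (SE 0.27, adjusted p = 0.000405). Within batch 2 these 5 log2 fold changes were 1.76, 1.66, 1.61, 1.53 and 1.57, each called. Within batch 1 they were 1.80, 1.96, 1.14, 2.17 and 1.32, and there the calls were lost for labelled Acadl KO / Acadvl wt against wild type (adjusted p = 0.0502) and for both Acadvl KO comparisons (adjusted p = 0.0905 and 0.0763), where a single knockout library stood against 2 controls.

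The 2 enzyme defects were also set against each other directly. Bdh1 was 0.26 higher on the log2 scale in labelled Acadl KO / Acadvl wt than in Acadl Het / Acadvl KO hearts (SE 0.26, adjusted p = 0.583), a difference no larger than its error. In hearts with Het alleles alone, Bdh1 was not called: the log2 fold change was -0.07 (SE 0.26) for Acadl Het / Acadvl wt and 0.08 (SE 0.29) for Acadl Het / Acadvl Het against wild type, both with an adjusted p of 1.00. The latter was -0.43 without the library rich in Rn45s. Acadvl Het against Acadvl wt gave 0.10 (SE 0.19), and the effect of the labelled Acadl KO differed between Acadvl Het and Acadvl wt hearts by -0.10 (SE 0.38). Neither was called.

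Oxct1, the transferase that commits acetoacetate to oxidation, was called lower in the Acadvl KO comparisons and in none of the other 8 comparisons. Wild-type hearts had 1039, 1146, 940.0 and 928 CPM (1013 ± 101, n = 4), and Acadl Het / Acadvl wt hearts had 1119, 1123, 1016 and 901 CPM (1040.0 ± 105, n = 4). Acadl Het / Acadvl Het hearts had 1133, 1106 and 950.3 CPM (1063 ± 98.7, n = 3). The 3 groups overlapped, and in each of them the batch 2 libraries were above those of batch 1.

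Acadl Het / Acadvl KO hearts had 617, 851, 926 and 865 CPM of Oxct1 (814 ± 136, n = 4). The first of these is the lowest of all 24 libraries. The 4 lie just below the wild-type range, 926 CPM against 928 CPM at the nearest point, and overlap the Acadl Het / Acadvl wt range. The share of all genes that separate from wild type in this way was not counted. Labelled Acadl KO hearts overlapped wild type, at 799, 1036, 906 and 904 CPM with Acadvl wt (911 ± 97.1, n = 4) and 1077, 887, 894, 1154 and 944 CPM with Acadvl Het (991 ± 119, n = 5).

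With Acadvl KO, Oxct1 fell 1.26-fold against wild type, a log2 fold change of -0.33 (SE 0.12, adjusted p = 0.0422), and 1.29-fold against Acadl Het / Acadvl wt, at -0.37 (SE 0.12, adjusted p = 0.0284). Both calls rest on few libraries. Without replicate 1 of Acadl Het / Acadvl KO the values were -0.19 (adjusted p = 0.207) and -0.24 (adjusted p = 0.131), and the first call was lost in 18 of 24 settings that leave out 1 library. Within batch 1 the differences were -0.10 and -0.14, not called, and within batch 2 they were -0.45 (adjusted p = 0.0494) and -0.49 (adjusted p = 0.0413). Labelled Acadl KO hearts differed from wild type by -0.17 (SE 0.12, adjusted p = 0.281) with Acadvl wt and -0.03 (SE 0.11, adjusted p = 0.824) with Acadvl Het. The direct comparison of the 2 defects gave 0.16 (SE 0.12, adjusted p = 0.433), so Oxct1 was not shown to differ between them.

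Acat1, the thiolase of the last step, had the smallest spread of the members, with a coefficient of variation of 3.84% to 9.39% within genotypes against 9.28% to 16.6% for Oxct1 and 15.0% to 52.7% for Bdh1. Wild-type hearts had 732, 722, 678 and 650.1 CPM (696 ± 38.4, n = 4). Acadl Het / Acadvl wt hearts had 712, 731, 708 and 667 CPM (704 ± 27.1, n = 4), and Acadl Het / Acadvl Het hearts had 709, 735 and 654 CPM (699 ± 41.2, n = 3). These groups lay on top of each other.

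In Acadl Het / Acadvl KO hearts Acat1 was at 509, 613, 593 and 555 CPM (568 ± 45.5, n = 4), below every library of the 3 groups just named. The labelled Acadl KO / Acadvl wt hearts had 708, 808, 691 and 649.8 CPM (714 ± 67.1, n = 4), all above the Acadvl KO hearts. Those with Acadvl Het had 763, 607, 671, 722 and 654 CPM (683 ± 60.7, n = 5), of which only replicate 2 fell into the range of Acadvl KO. The share of all genes that separate Acadvl KO hearts from other genotypes in this way was not counted.

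Acat1 fell 1.24-fold with Acadvl KO against wild type, a log2 fold change of -0.31 (SE 0.08, adjusted p = 0.00395), and 1.26-fold against Acadl Het / Acadvl wt, at -0.33 (SE 0.08, adjusted p = 0.00294). Within batch 1 these were -0.24 and -0.29, not called with a single Acadvl KO library. Within batch 2 they were -0.35 (adjusted p = 0.0414) and -0.34 (adjusted p = 0.0534). Labelled Acadl KO hearts differed from wild type by 0.02 (SE 0.08) with Acadvl wt and -0.03 (SE 0.07) with Acadvl Het, neither called, with adjusted p = 0.872 and 0.743.

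Here the 2 defects did differ in the direct test: Acat1 was 1.26-fold higher in labelled Acadl KO / Acadvl wt than in Acadl Het / Acadvl KO hearts, at 0.33 (SE 0.07, adjusted p = 0.0176). The direction held within batch 1 (0.22, adjusted p = 0.646) and batch 2 (0.37, adjusted p = 0.119), but the call did not. It was also lost without the libraries above 10 CPM of Alb (0.30, adjusted p = 0.148) and without replicate 2 of the labelled Acadl KO hearts (0.26, adjusted p = 0.0991).

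**Figure D2:**
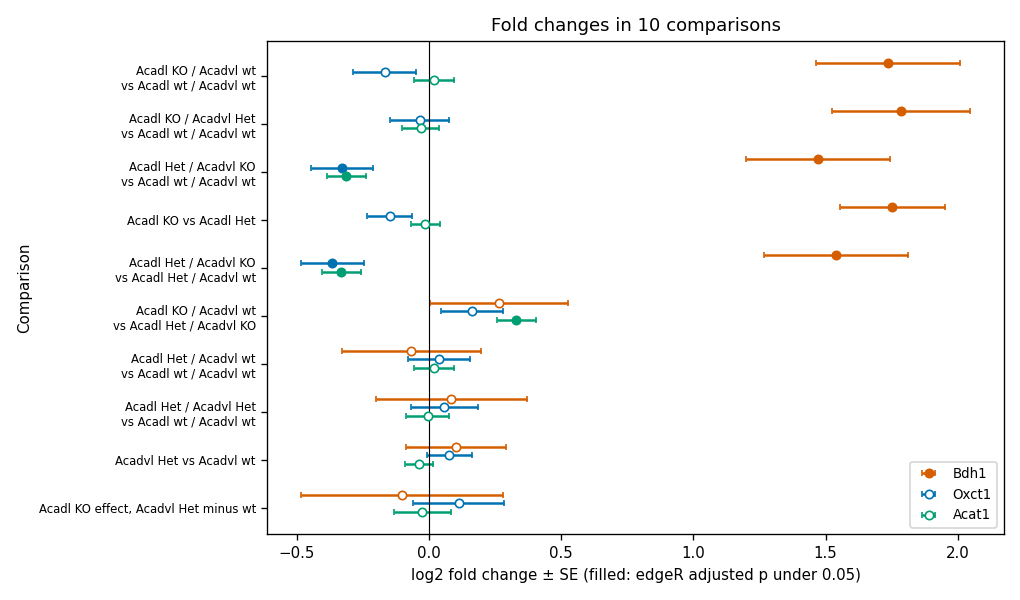
Log2 fold change with its SE (x axis) of Bdh1, Oxct1 and Acat1 in 10 comparisons (y axis), with filled points for an edgeR adjusted p under 0.05. Bdh1 lies between 1.47 and 1.79 in the upper 5 comparisons, Oxct1 and Acat1 are filled below 0 only for Acadvl KO, and the 4 lowest comparisons hold no filled point.

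Set against the background, 1 of 3 members was called higher and 0 lower in labelled Acadl KO / Acadvl wt hearts against wild type, where 19.6% of all genes were called higher and 17.6% lower (37.2% either way). For labelled Acadl KO / Acadvl Het the members' counts were again 1 and 0, beside 22% and 22.1% of all genes (44% either way), and for labelled Acadl KO against Acadl Het they were 1 and 0 beside 26.7% and 27.9% (54.7% either way). With Acadvl KO, 1 member was called higher and 2 lower against wild type, beside 15.1% and 13.2% of all genes (28.3% either way). The counts were the same against Acadl Het / Acadvl wt, beside 12.9% and 11.5% (24.4% either way). Between the 2 defects 1 member was called higher and 0 lower, beside 1.77% and 2.66% (4.43% either way). For Acadl Het / Acadvl Het against wild type, 0 members were called, beside 0.443% of genes, and for Acadvl Het against Acadvl wt 0, beside 0.00633% higher and 0.00633% lower (0.0127% either way). In Acadl Het / Acadvl wt against wild type and in the interaction 0 members and 0% of genes were called, with 541 and 817 genes at an unadjusted p under 0.05, and DESeq2 called 1 and 100 genes there.

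The balance between the members moved with Bdh1. The ratio of Bdh1 to Oxct1 per length was 0.123 ± 0.0276 in wild type (n = 4), 0.115 ± 0.0234 in Acadl Het / Acadvl wt (n = 4) and 0.122 ± 0.0570 in Acadl Het / Acadvl Het hearts (n = 3). It was 0.439 ± 0.136 with Acadvl KO (n = 4), and 0.452 ± 0.0771 (n = 4) and 0.427 ± 0.0944 (n = 5) with labelled Acadl KO on Acadvl wt and Het. The highest ratio without a full knockout label was 0.187 and the lowest with such a label was 0.270. The ratio of Acat1 to Oxct1 stayed between group means of 0.681 and 0.812.

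**Figure D3:**
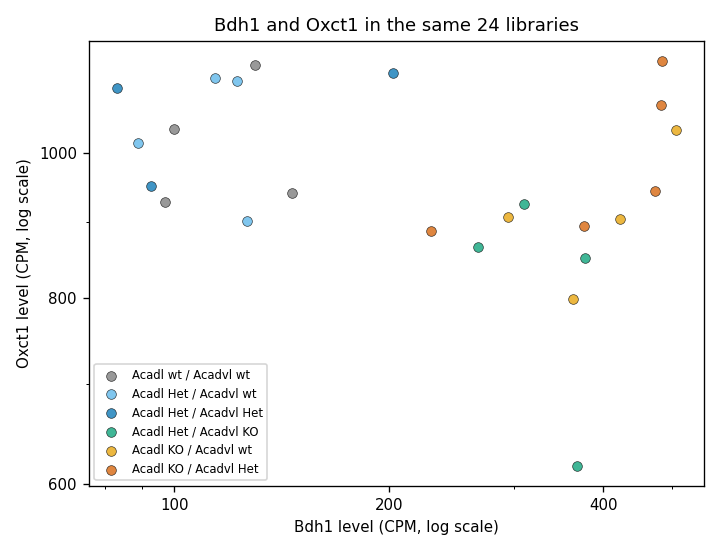
Bdh1 level (x axis, CPM, log scale) against Oxct1 level (y axis, CPM, log scale) in the 24 libraries, with a colour for each genotype. The 13 libraries with a full knockout label lie to the right, with Bdh1 at 229 CPM or more, while Oxct1 spans 617 to 1154 CPM in them and 901 to 1146 CPM in the others.

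Liver carries Bdh1 and Acat1, so hepatocyte markers are given beside them. The 12 hepatocyte markers were all detected in every genotype, and summed to 15.1 to 28.9 CPM in wild type, 21.8 to 41.6 CPM in Acadl Het / Acadvl wt, 70.4 to 334 CPM in Acadl Het / Acadvl Het, 17.0 to 122 CPM with Acadvl KO, and 19.6 to 163 CPM and 19.8 to 44.9 CPM with labelled Acadl KO on Acadvl wt and Het. In labelled Acadl KO against Acadl Het, 7 of 12 were called lower (median log2 fold change -2.32), beside 27.9% of all genes. Against wild type, 2 of 12 were called higher in labelled Acadl KO / Acadvl wt (median 2.68), 1 in labelled Acadl KO / Acadvl Het (median -1.15) and 0 with Acadvl KO (median 2.45). The shares of all genes called higher were 19.6%, 22% and 15.1% in the same order. Without the libraries above 10 CPM of Alb, and with Acadl Het / Acadvl wt alone as the control, Bdh1 was at 1.82 (adjusted p = 1.21e-05) in that comparison.

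Bdh1 levels fall into 2 separate sets, so likeness is given over all 24 libraries and within each set. Each set still mixes 3 genotypes and both batches. Pearson's r between log2 CPM of Oxct1 and Acat1 was 0.75 over the 13 libraries with a full knockout label and 0.85 over the 11 others. For Bdh1 and Acat1 it was 0.59 and 0.01. Among 12451 genes ranked by r with Bdh1 over all 24 libraries, the most alike were Grpel2 (r = 0.97 over all, 0.81 and 0.72 within the sets), a cochaperone of mitochondrial protein import, Optn (0.96, 0.81 and 0.67), an autophagy receptor, and Tecpr1 (0.96, 0.74 and 0.62), which acts in autophagosome maturation. The most opposite were Pkig (-0.96, -0.51 and -0.87), an inhibitor of protein kinase A, Apobec2 (-0.95, -0.70 and -0.64) and Angpt1 (-0.94, -0.69 and -0.71), the ligand of the Tie2 receptor.

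For Oxct1 the most alike over all 24 libraries were Fech (r = 0.89 over all, 0.92 and 0.72 within the sets), the last enzyme of heme synthesis, Tspan3 (0.88, 0.83 and 0.93) and Gnpat (0.86, 0.83 and 0.79), the first enzyme of ether lipid synthesis. Klhl15 (-0.78, -0.78 and -0.67), Slc43a1 (-0.78, -0.84 and -0.57) and the growth factor receptor Igf1r (-0.76, -0.70 and -0.72) were the most opposite. For Acat1 the most alike were Decr1 (0.91, 0.94 and 0.56), which helps oxidize unsaturated fatty acids, Ino80dos (0.91, 0.95 and 0.60) and the complex I subunit Ndufs1 (0.90, 0.93 and 0.67), and the most opposite were Ecm1 (-0.89, -0.93 and -0.54), Kbtbd11 (-0.84, -0.89 and -0.001) and fibronectin, Fn1 (-0.84, -0.86 and -0.69).

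The other genes of the pathway were grouped by role in 7 lists of 37 genes, of which 30 passed the filter. Over the 30, the median log2 fold change was 0.07 in labelled Acadl KO / Acadvl wt, -0.001 in labelled Acadl KO / Acadvl Het and -0.07 with Acadvl KO against wild type, beside -0.02, -0.02 and 0.01 over all genes tested. The lists held 7 genes called higher and 3 lower in the first of these, 5 and 3 in the second, and 3 and 8 in the third. Over all genes tested, the shares called higher and lower were 19.6% and 17.6%, 22% and 22.1%, and 15.1% and 13.2%, in the same order. Against Acadl Het, 9 were higher and 7 lower in labelled Acadl KO, and 2 higher and 7 lower with Acadvl KO, beside 26.7% and 27.9%, and 12.9% and 11.5%, of all genes.

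Of 2 other genes with roles related to ketone synthesis, 1 was tested. Bdh2, a cytosolic short-chain dehydrogenase, fell by 0.87 (SE 0.28, adjusted p = 0.0170) and by 0.85 (SE 0.26, adjusted p = 0.0113) in labelled Acadl KO on Acadvl wt and Het against wild type, at levels of 0.347 and 0.354 CPM against 0.641 CPM. It was also lower in labelled Acadl KO / Acadvl wt than in Acadl Het / Acadvl KO hearts, at -1.14 (SE 0.27, adjusted p = 0.0240). The call in labelled Acadl KO / Acadvl wt against wild type was lost without replicate 4 of those hearts (-0.53, adjusted p = 0.125) or wild-type replicate 3 (-0.75, adjusted p = 0.0520), and it was -2.20 within batch 1 and -0.29 within batch 2, called in neither. The call between the 2 defects was lost in 3 of 24 fits that leave out 1 library. With 7 to 44 counts per library this is close to the limit of detection. Hmgcll1 had at most 6 counts in any library and was not tested.

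Cytosolic enzymes that use or make acetoacetyl-CoA for lipid synthesis rose in 2 of 4 genes tested. The shares of all genes called higher against wild type were 19.6%, 22% and 15.1%, in the order of genotypes that follows. Aacs, which activates acetoacetate in the cytosol, rose by 0.70 (SE 0.13, adjusted p = 0.000358) in labelled Acadl KO / Acadvl wt, by 0.44 (SE 0.13, adjusted p = 0.00797) with Acadvl Het and by 0.70 (SE 0.13, adjusted p = 0.000565) with Acadvl KO against wild type. Its level stayed low, at 7.05, 5.88 and 7.04 CPM against 4.33 CPM. Hmgcs1, the cytosolic HMG-CoA synthase of cholesterol synthesis, rose by 0.56, 0.37 and 0.38 in the same order (SE 0.08, 0.07 and 0.08), from 34.5 CPM in wild type. Acat2 and Acat3, close copies between which the counting could split reads, were not called. The testis transferases Oxct2a and Oxct2b had at most 3 and 2 counts per library, so Oxct1 was the transferase detected.

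Among transporters and their partners, 6 of 7 genes were tested. Slc16a6, a ketone body exporter of liver, rose by 0.60 (SE 0.17, adjusted p = 0.0107) and 0.60 (SE 0.16, adjusted p = 0.00593) in labelled Acadl KO on Acadvl wt and Het against wild type, to 35.3 and 34.3 CPM from 22.4 CPM. The first value was 0.39 without replicate 1 of those hearts (adjusted p = 0.0493) and 0.19 within batch 1, where it was not called. Emb, a chaperone of monocarboxylate transporters, rose by 0.97 (SE 0.29, adjusted p = 0.0159) with Acadvl KO, to 2.15 from 1.14 CPM, and differed between the 2 defects by -1.36 (SE 0.31, adjusted p = 0.0196). The first call was lost without Acadvl KO replicate 4 (0.71, adjusted p = 0.106), and the second in 4 of 24 fits that leave out 1 library. With Acadvl KO against Acadl Het / Acadvl wt, where Emb was at 1.32 CPM, it was not called. Slc16a3, a lactate exporter, was lower by 0.31 (SE 0.09, adjusted p = 0.00754) in labelled Acadl KO against Acadl Het. Both Acadl Het control groups were at 3.26 CPM, and wild type was at 2.80 CPM. Against wild type Slc16a3 was not called in labelled Acadl KO on Acadvl wt or Het, at -0.07 (SE 0.13, adjusted p = 0.721) and -0.17 (SE 0.13, adjusted p = 0.282). Slc16a1, the main importer of ketone bodies and lactate in heart, and its chaperone Bsg were not called, with Slc16a1 at 257 CPM in wild type and 280 CPM in labelled Acadl KO / Acadvl wt hearts. Of 4 receptor genes only Hcar1 was tested and it was not called, and Hcar2, the beta-hydroxybutyrate receptor, had at most 10 counts.

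Oxct1 takes its CoA from succinyl-CoA, and 6 genes that make or use succinyl-CoA were tested. Ogdh and Dlst, subunits of the oxoglutarate dehydrogenase complex that makes it, rose by 0.30 (SE 0.08, adjusted p = 0.00350) and 0.39 (SE 0.09, adjusted p = 0.00197) in labelled Acadl KO / Acadvl wt against wild type, and Dld, shared with other dehydrogenase complexes, by 0.20 (SE 0.07, adjusted p = 0.0266). The Dld call was lost without replicate 2 of those hearts (0.16, adjusted p = 0.0721). In labelled Acadl KO / Acadvl Het against wild type, Ogdh and Dlst rose by 0.32 (adjusted p = 0.00115) and 0.38 (adjusted p = 0.00114). Dld was not called there, at 0.13 (adjusted p = 0.121). In labelled Acadl KO against Acadl Het, Ogdh, Dlst and Dld were called higher, at 0.36, 0.35 and 0.18. With Acadvl KO, Suclg2 and Sucla2, subunits of the ligases that consume it, fell by 0.34 (SE 0.07, adjusted p = 0.000892) and 0.21 (SE 0.08, adjusted p = 0.0431) against wild type. Against Acadl Het / Acadvl wt, Suclg2 was called lower with Acadvl KO, at -0.38, and Sucla2 was not called. The Sucla2 call was lost in 19 of 24 fits that leave out 1 library, with adjusted p up to 0.167. Suclg2 was also called lower in labelled Acadl KO against Acadl Het, at -0.13 (SE 0.05, adjusted p = 0.0270), a call lost in 5 of 24 such fits. Between the 2 defects Ogdh was called, at 0.26 (SE 0.07, adjusted p = 0.0468), and the other 5 genes were not. That call was lost in 18 of 24 such fits, with adjusted p up to 0.153.

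The thiolases related to Acat1 were called lower in 3 of 5 genes with Acadvl KO against wild type, beside 13.2% of all genes tested. Acaa2, a thiolase of mitochondrial beta-oxidation, fell by 0.30 (SE 0.10, adjusted p = 0.0306) and Scp2 by 0.29 (SE 0.09, adjusted p = 0.0183). The peroxisomal Acaa1a fell by 0.23 (SE 0.07, adjusted p = 0.0113), where reads may be split with its close copy Acaa1b. Hadhb, the most abundant of the 5, was not called, at -0.18 (SE 0.10, adjusted p = 0.161). Leaving out 1 library ended the Acaa2 call in 7 of 24 fits (adjusted p up to 0.119), that of Scp2 without wild-type replicate 1 (-0.25) or Acadvl KO replicate 1 or 4 (-0.19 and -0.26), and that of Acaa1a without Acadvl KO replicate 1 or 4 (-0.19 and -0.20). Acaa2 was higher in labelled Acadl KO / Acadvl wt than in Acadvl KO hearts, at 0.38 (SE 0.10, adjusted p = 0.0381), a call lost in 11 of 24 fits that leave out 1 library (adjusted p up to 0.140). Acaa1a fell by 0.21 (SE 0.07, adjusted p = 0.0185) in labelled Acadl KO / Acadvl wt and Scp2 by 0.25 (SE 0.08, adjusted p = 0.0192) in labelled Acadl KO / Acadvl Het. The first was lost without replicate 3 of its hearts (-0.18), and the second without replicate 2 of its hearts (-0.20) or wild-type replicate 1 (-0.22). Against Acadl Het, Acaa1b was lower by the test in labelled Acadl KO as well, at -0.33 (SE 0.12, adjusted p = 0.0257). This call was lost in 3 of 24 fits that leave out 1 library. Mean Acaa1b was 11.7 CPM in Acadl Het / Acadvl Het hearts and 7.17 to 8.78 CPM in the other genotypes. All 3 Acadl Het / Acadvl Het libraries were above 10 CPM of Alb. Against wild type Acaa1b was not called in either labelled Acadl KO genotype. The values were 0.06 (SE 0.17, adjusted p = 0.801) on Acadvl wt and -0.24 (SE 0.16, adjusted p = 0.236) on Acadvl Het.

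Isoleucine breakdown leads into Acat1 by 7 listed genes. Acadsb, the dehydrogenase of short branched chains, fell in all 3 comparisons with wild type, by 0.26 (SE 0.07, adjusted p = 0.00933), 0.31 (SE 0.07, adjusted p = 0.00117) and 0.46 (SE 0.07, adjusted p = 0.000121) in labelled Acadl KO on Acadvl wt, on Acadvl Het and with Acadvl KO. With Acadvl KO, Bckdhb, a subunit of the branched-chain ketoacid dehydrogenase, fell by 0.28 (SE 0.08, adjusted p = 0.0148) and the hydratase Echs1 by 0.18 (SE 0.06, adjusted p = 0.0368). The Echs1 call was lost in 16 of 24 fits that leave out 1 library (adjusted p up to 0.198), and that of Bckdhb without wild-type replicate 1 (-0.24) or Acadvl KO replicate 4 (-0.19). Bckdhb differed between the 2 defects, at 0.31 (SE 0.08, adjusted p = 0.0361), a call lost in 6 of 24 such fits. Bcat2, the transaminase of the first step, rose by 0.27 (SE 0.08, adjusted p = 0.0105) in labelled Acadl KO / Acadvl wt, and was not called without replicate 4 of those hearts (0.22, adjusted p = 0.0502). In labelled Acadl KO against Acadl Het, Bckdha and Dbt were called higher, by 0.15 (SE 0.06, adjusted p = 0.0379) and 0.19 (SE 0.07, adjusted p = 0.0253). These calls were lost in 6 and 2 of 24 such fits. Against wild type neither gene was called in labelled Acadl KO on Acadvl wt or Het. Bckdha was at 0.18 and 0.12 (adjusted p = 0.105 and 0.224), and Dbt at 0.18 and -0.006 (adjusted p = 0.144 and 0.965).

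**Figure D4:**
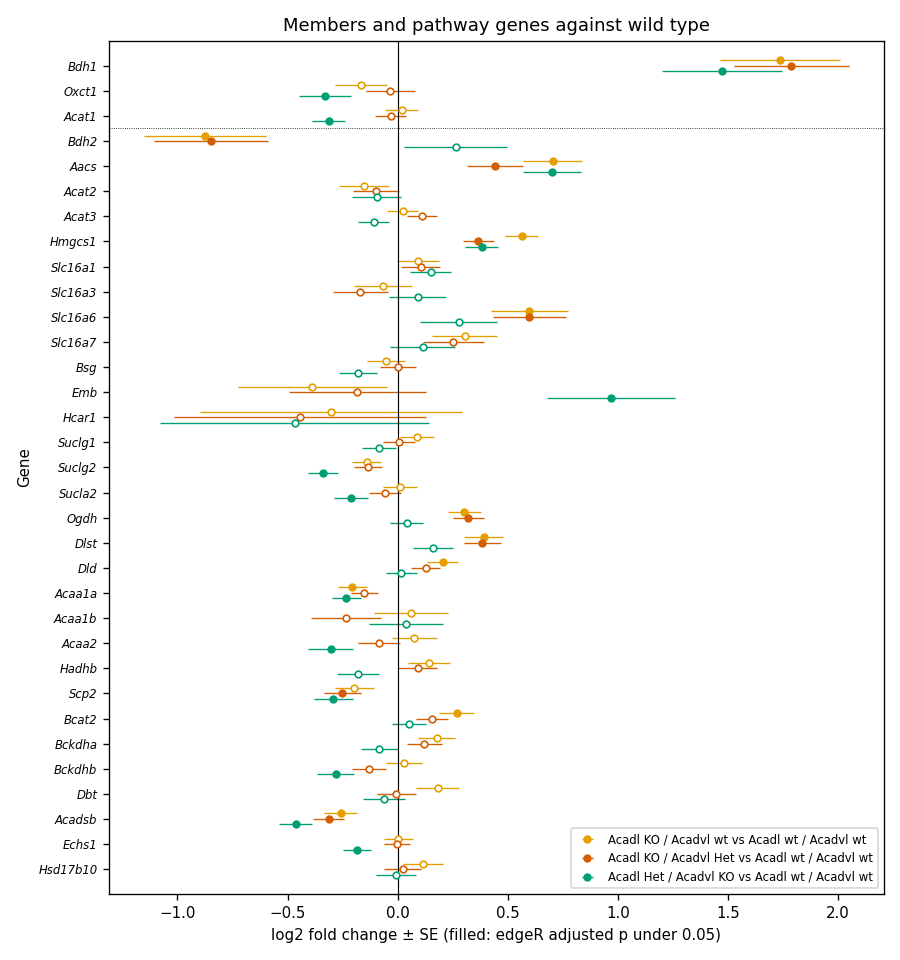
Log2 fold change with its SE against wild type (x axis) for the 3 members, above the dotted line, and 30 pathway genes (y axis), with filled points for an edgeR adjusted p under 0.05. Bdh1 lies beyond 1.47 in all 3 comparisons, while every filled point of the other genes lies between -0.87 and 0.97.

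Some markers of other cells were also called. Of all genes tested, 19.6% were called higher and 17.6% lower in labelled Acadl KO / Acadvl wt against wild type. The shares were 22% and 22.1% in labelled Acadl KO / Acadvl Het and 15.1% and 13.2% with Acadvl KO against wild type. In labelled Acadl KO against Acadl Het they were 26.7% and 27.9%. The 6 endothelial markers include the fatty acid binding protein Fabp4, which cardiomyocytes can also express. They summed to 1914 to 3663 CPM in labelled Acadl KO hearts and to 1510 to 1922 CPM in the other genotypes. Only 1 of 6 was called higher in each labelled Acadl KO genotype against wild type, with medians of 0.08 on Acadvl wt and 0.12 on Acadvl Het. In labelled Acadl KO against Acadl Het, 3 of 6 were called higher (median 0.19). The 6 macrophage markers summed to 236 to 410 CPM with Acadvl KO and 197 to 232 CPM in wild type, with 3 of 6 called higher (median 0.58). They summed to 191 to 251 CPM in labelled Acadl KO on Acadvl wt and 188 to 301 CPM on Acadvl Het. Against wild type, 0 of 6 and 2 of 6 were called higher in these 2 genotypes (medians 0.04 and 0.09). In labelled Acadl KO against Acadl Het, 2 of 6 were called higher (median -0.09). All of these markers were detected in every genotype. Of the 8 ventricular markers, 3 were called lower with Acadvl KO against wild type (median -0.23), 2 and 1 in labelled Acadl KO on Acadvl wt and Het (medians -0.02 and -0.09), and 3 in labelled Acadl KO against Acadl Het (median -0.08). In that last comparison 4 of 6 atrial markers (median -1.64) and 3 of 6 fibroblast markers (median -0.27) were also called lower. Against wild type, 1 of 6 atrial markers was called lower in each of the 3 genotypes, and fibroblast markers were called lower in labelled Acadl KO / Acadvl Het alone, with 2 of 6. The part of such shifts in the levels of Bdh1, Oxct1 and Acat1 was not tested.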

How the data were processed

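Per the labels' protocols, heart RNA was extracted with QIAzol and RNeasy, and Illumina sequencing of polyA libraries gave single-end reads. The authors deposited raw counts, 1 file per library. Per the file headers, featureCounts 1.5.2 counted primary alignments over exons of UCSC mm10 genes, ignoring strand and counting a read for every gene it overlaps. STAR 2.5.1b and a later featureCounts, 1.5.3, appear in the submitters' processing notes. The headers show 2 processing runs that match the isolation batches, so run and batch cannot be told apart.

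The main test was edgeR 4.0.16 (R 4.3.3), quasi-likelihood with robust fitting, on all 24 libraries, with genotype and batch as terms, TMM scaling and filterByExpr. Tests were two-sided with Benjamini-Hochberg adjustment over 15804 genes. SE is the size of the log2 fold change divided by the square root of F. A gene is called at an adjusted p under 0.05. CPM is the count per 1000000 of the TMM-scaled total, and CPM per kb divides it by the exon length in kilobases. Replicates differed by more than sampling noise in all 37 pairs of the same genotype, with chi-square per degree of freedom from 15.8 to 560. No library was therefore taken as a copy of another, and each was counted as 1 sample. This cannot show that libraries came from different mice, because separate preparations of 1 heart can also differ. Likeness used Pearson's r of log2 CPM with a prior count of 2, among genes that averaged 1 CPM or more.

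Named genes are the members, every pathway list gene called in a comparison described, the most abundant genes of lists with none called, and the 3 most alike and 3 most opposite genes of each member. The members and lists were chosen with earlier results of these data known. Alternatives used DESeq2 1.42.0, limma 3.58.1, other scalings, filters, batches and sets of libraries. The fit was tested on simulated data with 100 genes changed 1.5-fold and 100 changed 2-fold. For labelled Acadl KO / Acadvl wt against wild type it recovered 60% and 89% of these, with 8 false calls. For Acadvl KO against Acadl Het / Acadvl wt it recovered 55% and 88%, with 11 false calls. Changes smaller than 1.5-fold were not simulated. A merged table of the whole series was not used here. Results on 2 genes of the pathway lists are not reported here.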

Additional observations from a re-analysis of the deposited data

How the results depend on the processing

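No paired analysis was possible because the labels do not say what the numbers in the sample titles mean, some of which libraries share, and replicate numbers given in accession order pair nothing. The 5 higher calls of Bdh1 held under other scalings, filters, DESeq2, limma voom, no batch term, only the genotypes compared, batch 2 alone and without the libraries rich in Alb. In the last setting no Acadl Het / Acadvl Het library remained, so labelled Acadl KO was set against Acadl Het / Acadvl wt alone. Within batch 1, 3 of the 5 calls were lost (1.80, 1.14 and 1.32). Oxct1 with Acadvl KO against wild type was not called with DESeq2 size factors (-0.32), with only the genotypes compared (-0.33), within batch 1 (-0.10) or without the Alb libraries (-0.33). Against Acadl Het / Acadvl wt it was not called in the last 3 (-0.37, -0.14 and -0.37). Acat1 with Acadvl KO was not called within batch 1 (-0.24 and -0.29) nor, against Acadl Het / Acadvl wt, within batch 2 (-0.34). Acat1 between the 2 defects was not called with only the genotypes compared (0.31), within batch 1 (0.22) or batch 2 (0.37), or without the Alb libraries (0.30). The cause was not tested, but the single-batch fits and those with only the genotypes compared or without the Alb libraries use fewer libraries.

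Signs changed for differences that were never called. Bdh1 in Acadl Het / Acadvl Het against wild type was -0.0087 with limma voom and -0.40 within batch 1, and in Acadl Het / Acadvl wt it was 0.043 within batch 2. Within batch 1, Bdh1 was -0.028 for Acadvl Het and 0.39 for the interaction, and Oxct1 was 0.16 for labelled Acadl KO / Acadvl Het against wild type and 0.030 for labelled Acadl KO against Acadl Het. Acat1 within batch 1 was -0.024 and 0.043 for labelled Acadl KO on Acadvl wt and Het against wild type and 0.14 for the interaction. Acat1 in labelled Acadl KO / Acadvl wt was -0.038 without the Alb libraries, in Acadl Het / Acadvl Het 0.0081 with no batch term, and in Acadl Het / Acadvl wt -0.010 within batch 2. Each called result for a pathway gene was refitted under the alternatives and with each library left out. Of these refits, 1776 kept side and sign and 285 lost the call. Of 18 group means of the members, 1 moved by more than its SD under plain CPM, Acat1 in Acadl Het / Acadvl wt (733 CPM), and 0 under DESeq2 size factors.

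Leaving out each library in turn gave these ranges of log2 fold change against wild type, in the order labelled Acadl KO / Acadvl wt, labelled Acadl KO / Acadvl Het, Acadvl KO, Acadl Het / Acadvl Het and Acadl Het / Acadvl wt. For Bdh1 they were 1.62 to 1.86, 1.71 to 1.95, 1.40 to 1.61, -0.43 to 0.30 and -0.15 to 0.072. For Oxct1 they were -0.21 to -0.10, -0.12 to 0.037, -0.38 to -0.19, 0.03 to 0.13 and 0.01 to 0.10. For Acat1 they were -0.019 to 0.045, -0.070 to 0.023, -0.34 to -0.24, -0.038 to 0.022 and 0.003 to 0.04. The other 5, in the order labelled Acadl KO against Acadl Het, Acadvl KO against Acadvl wt, Acadvl Het, between the defects and interaction, were 1.65 to 2.03, 1.46 to 1.66, -0.17 to 0.21, 0.11 to 0.37 and -0.31 to 0.40 for Bdh1. They were -0.19 to -0.11, -0.42 to -0.24, 0.04 to 0.11, 0.03 to 0.21 and 0.05 to 0.17 for Oxct1, and -0.034 to 0.010, -0.36 to -0.26, -0.06 to -0.005, 0.26 to 0.36 and -0.065 to 0.037 for Acat1. The Oxct1 call against Acadl Het / Acadvl wt was also lost without replicate 1, 2 or 3 of that group (-0.32, -0.33 and -0.36).

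The number of genes called moved by over 1.5 times as follows. Labelled Acadl KO / Acadvl wt against wild type had 5874, but 86 within batch 1 and 3871 without the Alb libraries. Labelled Acadl KO / Acadvl Het had 6960, but 1451 and 4544 within batches 1 and 2. Acadvl KO had 4467, but 361 within batch 1. Acadl Het / Acadvl Het had 70, but 2 at 1 CPM in 3 libraries, 44 with DESeq2, 0 with limma voom, 110 with no batch term, 7 with only the genotypes compared, and 5 and 0 within batches 1 and 2. Acadl Het / Acadvl wt had 0, and 1 with DESeq2. Labelled Acadl KO against Acadl Het had 8639, but 2112 within batch 1. Acadvl KO against Acadvl wt had 3853, but 1984 with only the genotypes compared and 208 within batch 1. Acadvl Het had 2, but 9 with DESeq2 and 0 within either batch. Between the defects there were 700, but 1225 with DESeq2, 46 with only the genotypes compared, 5 and 54 within batches 1 and 2, and 77 without the Alb libraries. The interaction had 0, but 100 with DESeq2 and 45 with no batch term. Leaving out 1 library gave, in the same order, 4642 to 6070, 5654 to 7176, 3396 to 4674, 0 to 163, 0 to 1, 7848 to 8757, 2774 to 3988, 2 to 3, 131 to 999 and 0 to 92. Without the Alb libraries, comparisons that need Acadl Het / Acadvl Het could not be fitted, and labelled Acadl KO was set against Acadl Het / Acadvl wt alone, chosen after seeing the data. At these depths counting error is small for the members, and the low counts of Bdh2, Hcar1 and Emb limit those genes.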
